A study of Mus musculus with 12 samples.

Results

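The genes described here are 33 genes of G2 phase and mitosis, listed by name for their known roles in cell division, with earlier results of these data known when the list was made. Of the 33, 32 were measured, out of 18194 genes named on the array, and all 32 passed a filter on low signal that was set on the mean over all arrays, leaving them among 9662 genes tested. The remaining member, Ccnb1, was not analysed here, since no probe set of the annotation named it alone. Where several probe sets named a gene, the brightest on average (in log2 units, over all arrays) stood for it.

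Total RNA came from the cardiac ventricles of mouse embryos at embryonic day 16.5 and was hybridised to 12 Affymetrix single-colour arrays. There were 3 arrays, each from a separate ventricle sample, for each of 4 genotypes: Hopx-Hdac2 double-null, Hdac2-null, Hopx-null and wild type. Hdac2 is a class I histone deacetylase that removes acetyl groups from histones and other proteins, and Hopx is a small homeodomain protein that does not itself bind DNA and that recruits deacetylases. The study is known for asking how far the pair of proteins together limits the proliferation of embryonic cardiac muscle cells. The alleles, the strain, and whether the deletions covered every cell type or only some are not given in the sources used here. Whether embryos were littermates is likewise not given. The p-values rest on the spread between arrays of the same genotype and treat the arrays as independent, which could not be checked.

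A cell enters mitosis when cyclin B bound to the kinase CDK1 becomes active, and it leaves mitosis when the anaphase-promoting complex, switched on by CDC20, marks cyclin B and securin for destruction. The transcripts of these proteins, of the spindle motors and of the kinetochore are scarce in resting cells and are made together late in the cell cycle, under the transcription factors FOXM1 and B-MYB with the MuvB core, while the DREAM complex holds them down in resting cells. Cardiac myocytes still divide in the embryo, and they withdraw from the cell cycle around and after birth, so in a fetal ventricle these transcripts come from dividing myocytes and from dividing non-muscle cells alike.

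These regulators are known to act through short promoter elements, the CCAAT box (bound by NF-Y) and the cell cycle genes homology region, CHR (bound by MuvB complexes), so the promoters of the members show what the genes share apart from their measured signal. RefSeq promoters of the GRCm38.p6 build, each 300 bases long with 250 bases before and 50 after the annotated start, were available for 28 of the 33 members and gave 29 windows. The CHR letters TTTGAA, searched on both strands, stood in 69% of the members' promoters, against 12% of the promoters of all tested genes and 17.9% of all 32851 promoters. The CCAAT letters, searched the same way, stood in 75.9% of the members' promoters, 37.8% of those of tested genes and 37.4% of all promoters. They also stood in 70% of the promoters of other mitotic genes and 58.3% of those of G1/S and replication genes. Both elements occurred together in 62.1% of the members' promoters, 4.78% of those of tested genes and 6.95% of all. The share was 41.2% for other mitotic genes and 5.56% for G1/S and replication genes. The searched letters of the 2 elements share no bases with each other where both occur in the printed stretches. Within 50 bases of the start on either side, CHR letters lay in 65.5% of the members' promoters and 4.94% of all promoters. For other mitotic genes the share was 46.2%, and for G1/S and replication genes 2.78%.

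4 promoters are printed because their genes cover the arc of mitosis from entry (Ccnb2, cyclin B2, and Cdk1, its kinase) through chromosome condensation (Top2a, topoisomerase II alpha) to exit (Cdc20, activator of the anaphase-promoting complex). Each is the 200 bases directly before the start on the minus strand, read 5′ to 3′, and the capitals mark CHR letters (TTTGAA or their reverse complement TTCAAA) and CCAAT boxes (CCAAT or ATTGG). The stretches are Ccnb2 at chr9:70421555-70421754, Cdk1 at chr10:69352913-69353112, Top2a at chr11:99024190-99024389 and Cdc20 at chr4:118437344-118437543.
Ccnb2: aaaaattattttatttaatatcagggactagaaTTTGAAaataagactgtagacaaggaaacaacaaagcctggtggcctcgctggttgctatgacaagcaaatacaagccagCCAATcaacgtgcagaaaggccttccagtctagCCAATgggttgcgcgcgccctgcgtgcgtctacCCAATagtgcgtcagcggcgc
Cdk1: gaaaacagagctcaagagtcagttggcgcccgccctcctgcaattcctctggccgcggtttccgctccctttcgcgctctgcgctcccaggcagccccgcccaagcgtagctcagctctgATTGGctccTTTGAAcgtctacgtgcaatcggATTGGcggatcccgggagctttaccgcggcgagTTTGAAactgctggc
Top2a: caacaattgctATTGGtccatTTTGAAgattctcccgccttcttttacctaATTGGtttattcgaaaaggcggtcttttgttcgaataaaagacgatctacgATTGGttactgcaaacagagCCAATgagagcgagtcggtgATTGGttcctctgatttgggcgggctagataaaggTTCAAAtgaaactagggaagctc
Cdc20: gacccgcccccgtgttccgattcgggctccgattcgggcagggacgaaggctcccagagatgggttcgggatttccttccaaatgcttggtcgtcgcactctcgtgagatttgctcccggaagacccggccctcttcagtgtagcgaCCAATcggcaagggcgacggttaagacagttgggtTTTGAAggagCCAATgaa
Every one of the 4 holds CCAAT boxes upstream, and those of Cdk1, Top2a and Cdc20 hold CHR letters within 50 bases of the start. Ccnb2 has CHR letters there too, at bases 5 to 10 after the start, outside the printed stretch. Such matches describe letters only; binding was not measured here.

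**Figure D1:**
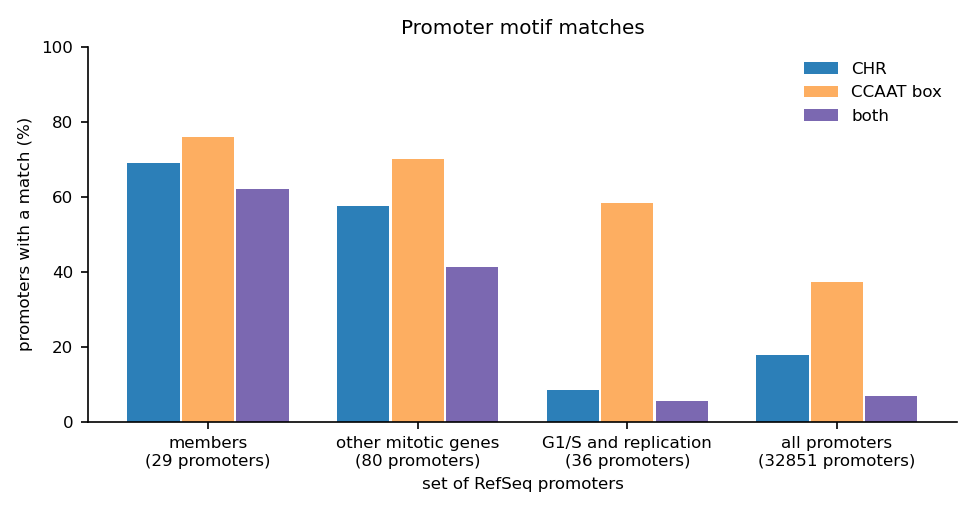
Share of RefSeq promoters (percent, vertical axis) that hold CHR letters, CCAAT letters or both in a 300-base window, for the G2/M and mitosis genes, other mitotic genes, G1/S and replication genes and all promoters. CHR letters stood in 69% of the members' promoters and 57.5% of those of other mitotic genes, against 8.33% of those of G1/S genes and 17.9% of all. CCAAT letters stood in 75.9%, 70%, 58.3% and 37.4% of the same sets.

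The arrays matched their genotype labels. Hdac2 signal was 4.15 ± 0.148 units in double-null and 4.05 ± 0.0049 units in Hdac2-null ventricles, against 4903 ± 679 units in Hopx-null and 4839 ± 314 units in wild-type ventricles (SD, n = 3 each). Hopx signal was 1700 ± 38.6 units in double-null and 1992 ± 111 units in Hopx-null ventricles, against 12042 ± 317 units in Hdac2-null and 9817 ± 2082 units in wild-type ventricles. The sexes were not balanced, since Xist was high on 1 of 3 arrays of each null genotype and on 2 of 3 wild-type arrays. Summed signal of 8 ventricular cardiomyocyte markers stayed between 209324 and 216347 units on all 12 arrays, while lung, thymus and neural markers were at or below the floor of 82.9 units. Atrial markers varied more, with sums of 6 genes from 49043 to 70126 units and Sln among them from 41.3 to 1616 units. The depth of an array is not a count, so precision here rests on the 3 arrays a group.

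Transcripts of the mitotic programme were detected in all 4 genotypes. 31 of the 32 members were above the floor on every array, the exception being the polo-like kinase Plk1, which was at or below it on 9 of 12. The highest group mean exceeded the lowest by a median of 1.09-fold over the members, and 17 members kept all 4 group means within 1.1-fold of each other. None of the 6 comparisons called a member at an adjusted p under 0.05 (limma across all 9662 genes). In bulk tissue, fewer dividing cells and less RNA per dividing cell cannot be told apart.

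**Figure D2:**
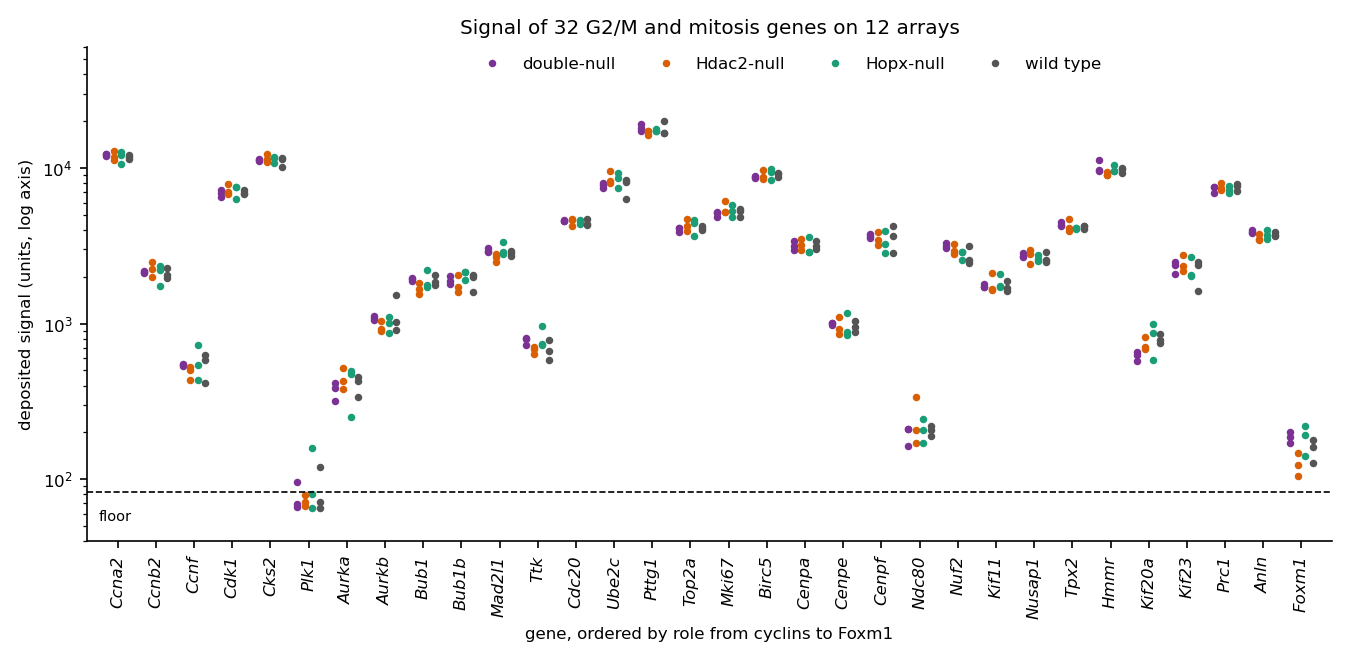
Deposited signal (units, log axis) of the 32 measured members on each of the 12 arrays, by genotype, with genes ordered by role; the dashed line is the floor of 82.9 units. The 4 genotypes overlap for most genes; Foxm1 and Kif20a are among those whose double-null and Hdac2-null points do not. Signals of different genes come from different probes and are not compared.

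The cyclins and CDK1 open mitosis. Cdk1, the mitotic kinase itself, measured 7244, 6930.3 and 6554 units in double-null ventricles, 6851, 7914 and 7028 in Hdac2-null, 7520.0, 7539 and 6350.5 in Hopx-null and 6811, 6938 and 7265 in wild-type ventricles. Its highest array was Hdac2-null replicate 2 and its lowest Hopx-null replicate 3, and every pair of genotypes overlapped. Ccna2 (cyclin A2, which acts in S phase and G2) averaged 12166 ± 180.4 units in double-null, 11929.8 ± 825 in Hdac2-null, 11815 ± 1092 in Hopx-null and 11798 ± 431 in wild-type ventricles (SD, n = 3 each). Ccnb2 averaged 2144 ± 23.2 units in double-null, 2246 ± 241 in Hdac2-null, 2096 ± 319 in Hopx-null and 2101 ± 151 in wild-type ventricles. Ccnf, the cyclin F subunit of a ubiquitin ligase, and Cks2, a small CDK-binding protein, completed the group. Across these 5 genes the log2 differences from wild type lay between -0.020 and 0.045 in double-null, between -0.13 and 0.093 in Hdac2-null, and between -0.013 and 0.063 in Hopx-null ventricles.

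The mitotic kinases order the steps of division. Plk1, which drives centrosome maturation and mitotic entry, measured 66.1, 69.5 and 95.3 units in double-null ventricles, 67.6, 79.4 and 71.1 in Hdac2-null, 79.8, 158 and 64.9 in Hopx-null and 65.0, 120.2 and 71.7 in wild-type ventricles. With 9 arrays at or below the floor its differences carry little information. Aurkb, the catalytic subunit of the chromosomal passenger complex, measured 1112, 1091 and 1050.2 units in double-null ventricles, 897, 1039 and 922 in Hdac2-null, 1097, 874 and 1009 in Hopx-null and 1535, 906 and 1031 in wild-type ventricles. Wild-type replicate 1 stood above the other 11 arrays for Aurkb, and without that array the Hopx-null minus wild-type log2 difference was 0.033 in place of -0.19. On that array the log2 ratio of the 3′ to the 5′ Gapdh probe set was 1.33, against 0.842 to 1.07 on the other 11; its part in the result was not tested. Aurka, the centrosomal Aurora kinase, had the widest 95% intervals of any member, -0.67 to 0.42 on the log2 scale for double-null against wild type.

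The spindle checkpoint genes hold anaphase back until chromosomes are attached. Bub1, a checkpoint kinase at kinetochores, measured 1966, 1881 and 1925 units in double-null ventricles, 1665, 1832 and 1557 in Hdac2-null, 2224, 1781 and 1726 in Hopx-null and 1857, 1764 and 2048 in wild-type ventricles. Mad2l1, the checkpoint protein MAD2 that inhibits CDC20, measured 3074, 2896 and 2926 units in double-null ventricles, 2481, 2789.5 and 2663 in Hdac2-null, 3328, 2907 and 2784 in Hopx-null and 2827, 2739 and 2923 in wild-type ventricles. Ttk, the MPS1 kinase, measured 798, 814 and 726 units in double-null ventricles, 705, 686 and 635 in Hdac2-null, 963, 734 and 739 in Hopx-null and 585, 785 and 671 in wild-type ventricles. For all 3 the double-null arrays lay above every Hdac2-null array and overlapped with the Hopx-null and wild-type arrays. Bub1b, which encodes BUBR1, averaged 1897 ± 106 units in double-null, 1794 ± 229.6 in Hdac2-null, 2071 ± 131 in Hopx-null and 1879 ± 249 in wild-type ventricles, and its groups overlapped throughout.

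Of the genes of mitotic exit, Cdc20 measured 4656, 4597 and 4576 units in double-null ventricles, 4216, 4652 and 4729 in Hdac2-null, 4539, 4653 and 4363 in Hopx-null and 4286, 4392 and 4708 in wild-type ventricles. All groups overlapped and the 12 arrays spanned only 4216 to 4729 units. Ube2c, the ubiquitin-conjugating enzyme of the anaphase-promoting complex, measured 7971, 7737 and 7463 units in double-null ventricles, 8052, 9630.3 and 8246 in Hdac2-null, 8617, 9268 and 7397 in Hopx-null and 6364, 8158 and 8348 in wild-type ventricles. The Hdac2-null arrays all lay above the double-null arrays for Ube2c, and wild-type replicate 1 was the lowest of the 12. Pttg1, securin, averaged 18199.8 ± 964 units in double-null, 16935 ± 566 in Hdac2-null, 17569 ± 314 in Hopx-null and 17905 ± 1808 in wild-type ventricles.

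The chromosome genes include the usual markers of proliferating cells. Mki67, which coats mitotic chromosomes and is the Ki-67 antigen, measured 5235, 5141 and 4878 units in double-null ventricles, 5253, 6154 and 5219 in Hdac2-null, 5325, 5748 and 4839.8 in Hopx-null and 4861, 5329 and 5431 in wild-type ventricles. Top2a, which untangles sister chromatids, measured 4096, 4127 and 3866 units in double-null ventricles, 3968, 4682 and 4216 in Hdac2-null, 4651, 4422 and 3633 in Hopx-null and 3978, 4098 and 4243 in wild-type ventricles. Birc5, the survivin subunit of the chromosomal passenger complex, measured 8819, 8914 and 8568 units in double-null ventricles, 8714, 9677 and 8559.7 in Hdac2-null, 9840.5, 9457 and 8432 in Hopx-null and 9261, 9108 and 8824 in wild-type ventricles. In each of the 3 genes all pairs of genotypes overlapped, and Hopx-null replicate 3 was the lowest array of all 12. Their log2 differences between double-null and wild type were -0.033, -0.027 and -0.048 with standard errors of 0.081, 0.090 and 0.062.

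Among the kinetochore genes, Nuf2, a subunit of the NDC80 complex that grips microtubules, measured 3062, 3161 and 3278 units in double-null ventricles, 2799, 3264 and 2934 in Hdac2-null, 2888, 2547 and 2898 in Hopx-null and 2466, 2556 and 3173 in wild-type ventricles. The double-null arrays lay above all Hopx-null arrays, and overlapped with wild type through wild-type replicate 3. Ndc80, its partner in the complex, averaged 194 ± 27.4 units in double-null, 237 ± 86.7 in Hdac2-null, 207 ± 36.7 in Hopx-null and 206 ± 16.5 in wild-type ventricles. Cenpa (the centromeric histone H3 variant), Cenpe (a kinetochore motor) and Cenpf (a large kinetochore protein) differed from wild type by log2 -0.0068, 0.058 and 0.051 in double-null ventricles.

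Spindle and cytokinesis genes held the member with the lowest double-null signal relative to wild type. Kif20a, a kinesin of the central spindle needed for cytokinesis, measured 631, 659 and 576 units in double-null ventricles, 687, 824 and 708 in Hdac2-null, 990.0, 873 and 582 in Hopx-null and 852, 783 and 754 in wild-type ventricles. All double-null arrays lay below all wild-type and all Hdac2-null arrays, while Hopx-null replicate 3 fell inside the double-null range. Hmmr, a spindle protein that binds microtubules, measured 9594, 9753 and 11258 units in double-null ventricles, 9087, 9498 and 8996 in Hdac2-null, 9515, 10467 and 9503 in Hopx-null and 9235, 9888 and 10061 in wild-type ventricles, and double-null replicate 3 was the highest of the 12. Tpx2, the activator of Aurora A on the spindle, measured 4482, 4329.6 and 4260.5 units in double-null ventricles, 3947, 4700.2 and 4112 in Hdac2-null, 4113, 4093 and 4075 in Hopx-null and 4052, 4257 and 4266 in wild-type ventricles. The double-null arrays for Tpx2 lay above all Hopx-null arrays and inside the Hdac2-null range. Prc1, which bundles microtubules at the midzone, measured 7583, 7570.4 and 6946 units in double-null ventricles, 7268, 8014 and 7489 in Hdac2-null, 7206, 7661 and 6868 in Hopx-null and 7867, 7079 and 7699 in wild-type ventricles, with all genotypes overlapping. Anln, the actin-binding anillin of the cleavage furrow, measured 3888, 3984 and 3824 units in double-null ventricles, 3431, 3502 and 3752 in Hdac2-null, 4027, 3708 and 3480.2 in Hopx-null and 3656, 3691 and 3886 in wild-type ventricles, with the double-null arrays above the Hdac2-null arrays. Kif11 (the motor that separates spindle poles), Nusap1 (a spindle microtubule stabiliser) and Kif23 (centralspindlin) overlapped in every pair of genotypes.

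Foxm1, the transcription factor of the programme, measured 171, 202 and 187 units in double-null ventricles, 124, 106 and 147 in Hdac2-null, 219, 193 and 141 in Hopx-null and 128, 179 and 161 in wild-type ventricles. All 3 Hdac2-null arrays lay below all 3 double-null arrays, and the Hopx-null and wild-type arrays overlapped with both. Its ratio of highest to lowest group mean, 1.49-fold between double-null and Hdac2-null, was the largest of the 32 members.

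**Figure D3:**
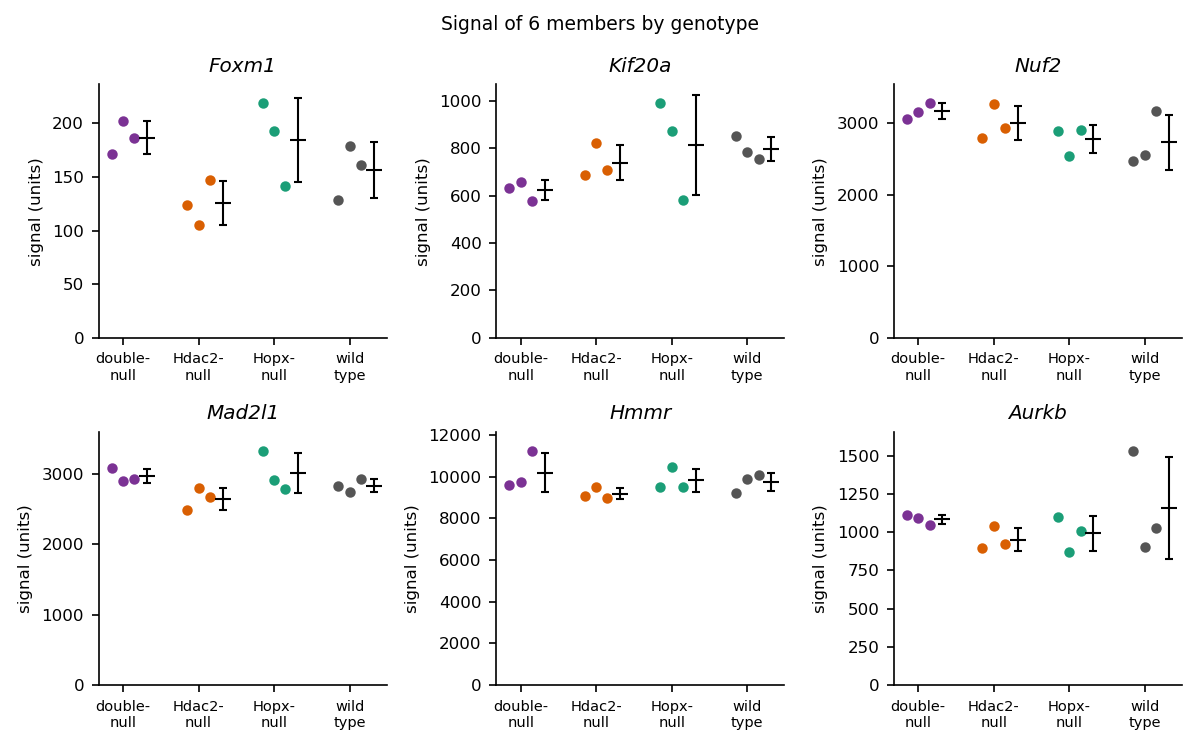
Signal (units, axes from 0) of Foxm1, Kif20a, Nuf2, Mad2l1, Hmmr and Aurkb on each array by genotype; the cross bar and whisker beside each group are the mean and SD of its 3 arrays. The double-null and Hdac2-null points do not overlap for Foxm1, Kif20a, Mad2l1, Hmmr and Aurkb, and the single high wild-type point for Aurkb is replicate 1. Of all 32 members, 28.1% separated these genotypes in the higher and 6.25% in the lower direction, against 13.2% and 13% of all genes. Members shifted together by array, so they are not separate observations.

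Loss of both genes compared with wild type asks whether mitotic transcripts differ when Hdac2 and Hopx are missing together. 0 of the 32 members were called, against 0.031% of all tested genes (3 genes). 21 members were higher and 11 lower, with a median log2 difference of 0.029 against -0.014 over all tested genes. Nuf2 had the smallest p on the higher side, at log2 0.22 (SE 0.10, 95% interval 0.0027 to 0.44, adjusted p = 0.673), and Ttk followed at 0.21 (SE 0.14, adjusted p = 0.745). On the lower side Kif20a was at log2 -0.36 (SE 0.17, adjusted p = 0.673) and Birc5 at -0.048 (adjusted p = 0.855). Kif20a was the only member whose 3 double-null arrays did not overlap with the 3 wild-type arrays, 3.12% of the members against 8.96% of all genes for the lower direction, and no member did so in the higher direction, against 6.42%. All 4 spindle checkpoint genes, all 4 spindle motor and microtubule genes and all 3 genes of the anaphase-promoting complex and its substrates had positive differences, and all 3 chromosome genes and all 3 mitotic kinases negative ones, none past the test. Further probe sets were at -0.33 and -0.012 for Cdc20 and at -0.23 for Bub1b. The remaining further probe sets of the positive groups, where above the floor on all arrays, were positive. Over the alternatives Pttg1 ranged from -0.054 to 0.18 and Ube2c from -0.096 to 0.0997. Of the kinases, Plk1 was mostly at the floor, and Aurkb, at -0.057, ranged from -0.21 to 0.17 over the alternatives. For 27 of 32 members the 95% interval lay inside a 1.5-fold difference in either direction; the exceptions were Plk1, Aurka, Ndc80, Kif20a and Foxm1. At an unadjusted p under 0.05 there was 1 member, Nuf2, against 7.29% of all genes. The summed signal of 7 leukocyte markers, 3 of them at the floor on all arrays, was 4657 to 5395 units in double-null and 5582 to 6213 units in wild-type ventricles. Most of it was Csf1r, at 3591 to 4085 units in double-null and 4352 to 4744 units in wild-type ventricles. Tyrobp was also lower on every double-null array, while Fcer1g and Lyz2 overlapped. Summed over 8 endothelial markers, signal was 14301 to 14831 units in double-null and 15138 to 17085 units in wild-type ventricles. None of the 8 was at the floor on all arrays, and only Tie1 separated the genotypes. Tie1 was at 279 to 300 units in double-null and 315 to 364 units in wild-type ventricles. The part of these marker lists in the result was not tested.

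Loss of Hdac2 alone compared with wild type called 0 of 32 members, against 0.0207% of all genes. 17 members were higher and 15 lower, and the median log2 difference was 0.011 against -0.014 over all genes. The smallest p-values on the higher side belonged to Ube2c at log2 0.19 (SE 0.11, adjusted p = 0.927) and Nuf2 at 0.14 (SE 0.10). The Ube2c value was 0.062 without wild-type replicate 1 and 0.067 with array weights. On the lower side they belonged to Foxm1 at -0.32 (SE 0.18, adjusted p = 0.927) and Bub1 at -0.17 (SE 0.10). All 4 spindle checkpoint genes had differences below 0, that of Ttk at only -0.00078. No member separated the groups, against 3.97% of all genes higher and 5.92% lower. The interval lay within 1.5-fold for 27 of 32 members. No member had an unadjusted p under 0.05, against 5.11% of all genes. Summed leukocyte markers, mostly Csf1r, were at 4753 to 5171 units in Hdac2-null and 5582 to 6213 units in wild-type ventricles. Csf1r, Fcer1g and Tyrobp were each lower on every Hdac2-null array, and Lyz2 overlapped. Erythroid markers summed to 571 to 1627 units in Hdac2-null and 249 to 489 units in wild-type ventricles. Of 8 erythroid markers measured, 5 were at the floor on all arrays. Hbb-y measured 1209, 985 and 219 units in Hdac2-null and 7.66, 4.84 and 123 units in wild-type ventricles. Alas2 and Slc4a1, the other tested erythroid markers, overlapped between these genotypes. Fibroblast and mesenchyme markers summed to 53234 to 55092 units in Hdac2-null and 55952 to 59429 units in wild-type ventricles. Col3a1 and Pdgfra were each lower on every Hdac2-null array, and the other markers of this list overlapped. The 4 liver markers summed to 56.9 to 579.9 units in Hdac2-null and 25.9 to 43.5 units in wild-type ventricles. Of these, 1 was at the floor on all arrays, and all 4 were below it on every wild-type array and on Hdac2-null replicate 1. The highest values came from Hdac2-null replicate 3, with Alb at 176, Afp at 205 and Ttr at 188 units. The part of these marker lists in the result was not tested.

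Loss of Hopx alone compared with wild type called 0 of 32 members, against 0.0103% of all genes. 19 members were higher and 13 lower, with a median log2 difference of 0.017 against -0.0025 over all genes. Ttk, at log2 0.25 (SE 0.14, adjusted p = 1), and Ube2c, at 0.15 (SE 0.11), had the smallest p-values on the higher side. Aurkb, at -0.19 (SE 0.17), and Prc1, at -0.059 (SE 0.061), had them on the lower side. The direction for Aurkb rested on wild-type replicate 1, as given above. No member separated the groups, against 1.97% of all genes higher and 2.58% lower. The interval lay within 1.5-fold for 29 of 32 members, more than in any other of the 6 comparisons. No member had an unadjusted p under 0.05, against 2.59% of all genes. Summed leukocyte markers, mostly Csf1r, were at 5105 to 5436 units in Hopx-null ventricles and did not reach the wild-type range given above. Csf1r, Tyrobp and Lyz2 were each lower on every Hopx-null array, and Fcer1g overlapped. The part of these markers in the result was not tested.

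The 3 comparisons with wild type share their wild-type arrays, so their values for a gene are not independent. Side by side, Foxm1 was at log2 0.27 in double-null, -0.32 in Hdac2-null and 0.23 in Hopx-null ventricles, and Nuf2 at 0.22, 0.14 and 0.031 in the same order. A second Foxm1 probe set, above the floor on 9 of 12 arrays, was at -0.22, -0.28 and -0.085, of the other sign in double-null and Hopx-null ventricles. With the floor doubled, the Hdac2-null value of the first was -0.038.

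**Figure D4:**
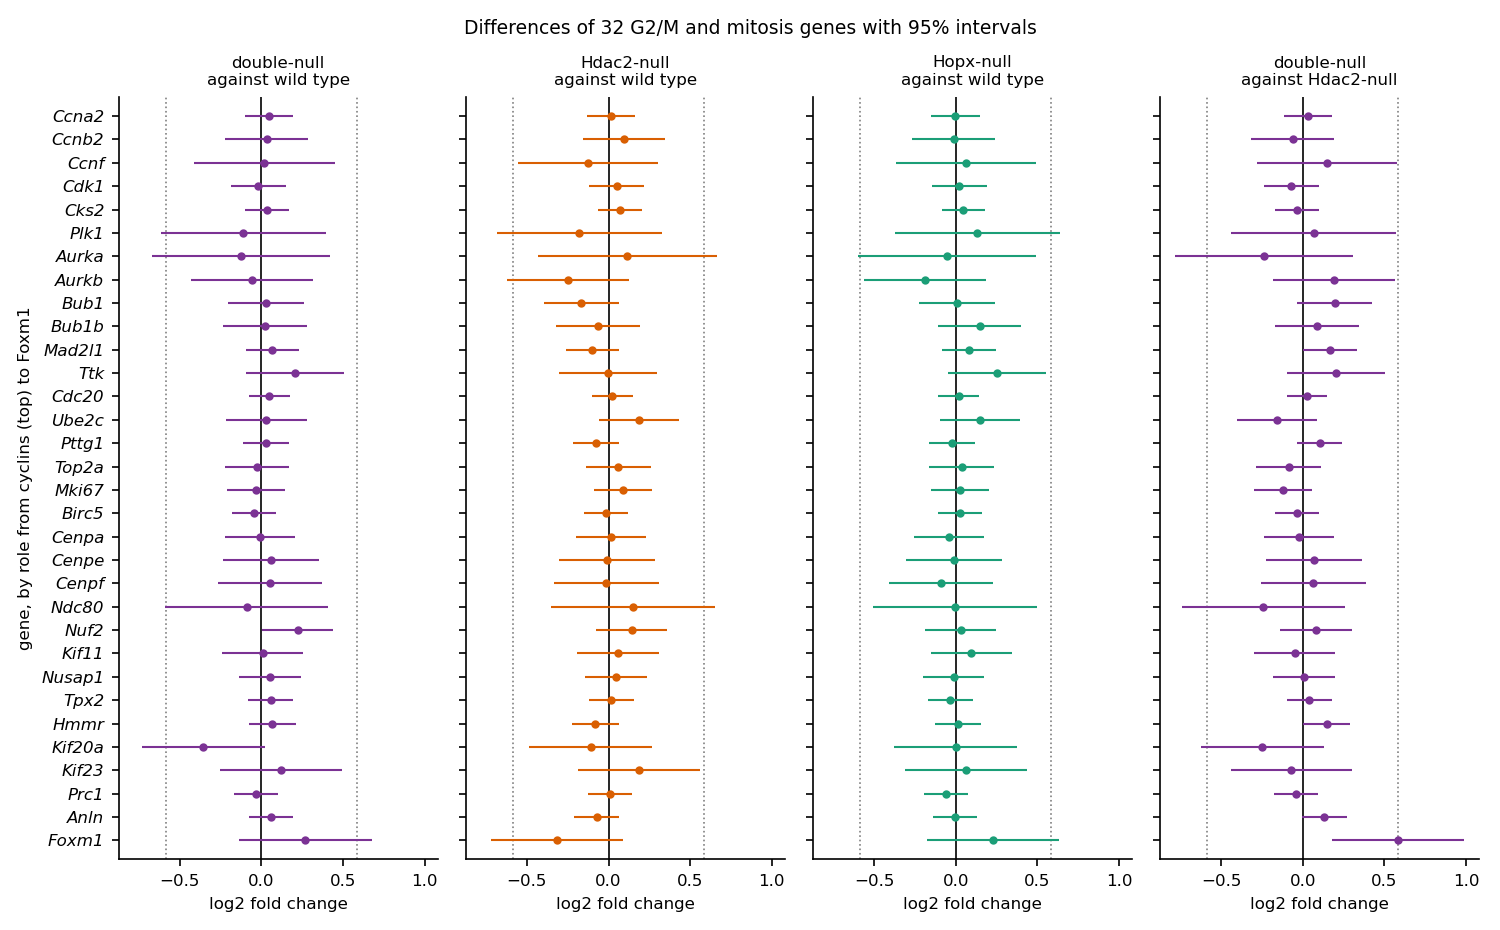
Log2 fold change of the 32 members (points) with 95% intervals (lines) in 4 comparisons, genes ordered by role; dotted lines mark a 1.5-fold difference in either direction. Nearly all intervals include 0, with Nuf2 in double-null against wild type and Foxm1, Hmmr and Mad2l1 in double-null against Hdac2-null lying just or wholly above it.

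The comparison of double-null with Hdac2-null ventricles asks what added loss of Hopx does where Hdac2 is already missing, and it held the smallest p-values of the members. 0 of 32 were called, against 0.0103% of all genes. Foxm1 was at log2 0.58 (SE 0.18, 95% interval 0.18 to 0.99, adjusted p = 0.366), and its 3 double-null arrays were all above its 3 Hdac2-null arrays. Hmmr was at log2 0.15 (interval 0.0038 to 0.29, adjusted p = 0.431) and Mad2l1 at 0.17 (interval 0.0016 to 0.33, adjusted p = 0.437); Mad2l1 was singled out here after its values were seen. On the lower side stood Mki67, at -0.12 (SE 0.081, adjusted p = 0.600), and Kif20a, at -0.25 (SE 0.17, adjusted p = 0.614). At an unadjusted p under 0.05 there were 3 of 32 members, 9.38%, against 11.3% of all genes.

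Between these genotypes 9 members had all 3 double-null arrays above all 3 Hdac2-null arrays, 28.1% of the members against 13.2% of all genes. They were Ccnf, Aurkb, Bub1, Mad2l1, Ttk, Pttg1, Hmmr, Anln and Foxm1. Some gaps were narrow: for Pttg1 the lowest double-null array was at 17301 and the highest Hdac2-null array at 17281 units. The same 2 arrays were at 531 and 530 units for Ccnf and at 1050 and 1039 units for Aurkb. Members shifted together by array, as given below, so the 9 are not separate observations. 2 members, Ube2c and Kif20a, separated in the lower direction, 6.25% against 13% of all genes. The members' median log2 difference was 0.028 against -0.0045 over all genes, and 18 of 32 were higher. The double-null arrays were also the closest to each other: the median SD over members was 0.048 log2 units in double-null, against 0.12 in Hdac2-null, 0.16 in Hopx-null and 0.11 in wild-type ventricles. Double-null had the smallest SD of the 4 groups for 21 of 32 members, 65.6%, against 40.2% of all tested genes.

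Weighting arrays by their quality, an alternative, gave double-null replicate 2 a weight of 7.98 and the other double-null arrays 1.43 and 0.82. Hdac2-null replicate 1 had a weight of 3.05, the other Hdac2-null arrays 0.77 and 0.87, and wild-type replicate 1 had 0.31. The weights thus leaned on a single array in each compared group, and 3 members were called in this comparison. These were Foxm1 at log2 0.66 (adjusted p = 0.0159), Anln at 0.18 (adjusted p = 0.024) and Mad2l1 at 0.19 (adjusted p = 0.0338). Under the same weights 957 of 9662 genes were called, 9.9%. Summed markers of 3 other cell types did not overlap between the same genotypes. The summed signal of 8 endothelial markers was 14301 to 14831 units in double-null and 15848 to 16548 units in Hdac2-null ventricles, with 8 of 8 measured and none at the floor on all arrays. Kdr, Tie1 and Emcn were each lower on every double-null array, and the other endothelial markers overlapped. 6 fibroblast and mesenchyme markers summed to 55629 to 59374 units in double-null and 53234 to 55092 in Hdac2-null ventricles. Only Postn among them was higher on every double-null array, and the others overlapped. Erythroid markers, 5 of 8 measured ones at the floor on all arrays, summed to 211 to 260.2 units in double-null and 571 to 1627 units in Hdac2-null ventricles. Most of that difference was Hbb-y, below the floor on every double-null array and at 1209, 985 and 219 units in Hdac2-null ventricles. Slc4a1 was lower on every double-null array, near or below the floor throughout, and Alas2 overlapped. The part of these marker lists in the result was not tested.

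The comparison of double-null with Hopx-null ventricles asks what added loss of Hdac2 does where Hopx is already missing. 0 of 32 members were called, against 0.0207% of all genes. 17 members were higher and 15 lower, with a median log2 difference of 0.022 against -0.0071 over all genes. Nuf2 was at log2 0.19 (SE 0.10, adjusted p = 0.640) and Tpx2 at 0.090 (SE 0.063, adjusted p = 0.724), and these 2 were the only members to separate the groups, both in the higher direction, 6.25% against 6.25% of all genes, while none did so in the lower direction, against 8.56%. No member had an unadjusted p under 0.05, against 8.11% of all genes. Kif20a was at -0.36 (SE 0.17, adjusted p = 0.618) and Birc5 at -0.073 (adjusted p = 0.765) on the lower side. Leaving out Hopx-null replicate 3 moved the Kif20a value to -0.58 (adjusted p = 0.200).

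The interaction, the double-null difference beyond the sum of the single-null differences, called 0 of 32 members and 0% of all genes (limma), while 0 of 32 members and 4.11% of all genes had an unadjusted p under 0.05. Aurkb had an interaction of log2 0.38 (SE 0.24, adjusted p = 0.944) and Anln of 0.14 (SE 0.088). The Aurkb value was 0.16 without wild-type replicate 1, and 0.86 with the Aurkb probe set of largest interquartile range. Ube2c had -0.31 (SE 0.16, adjusted p = 0.944) and Mki67 -0.15 (SE 0.11). The median was 0.012 against 0.0048 over all genes. Standard errors are larger here, with a median of 0.14 against 0.10 in the pairwise comparisons, and the interval lay within 1.5-fold for 22 members.

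The members shifted together on particular arrays. Hdac2-null replicate 2 was the highest array of its group for 26 of 32 members and the highest of all 12 for 14 of them. Hopx-null replicate 3 was the lowest of its group for 25 and the lowest of all 12 for 10. Centred on each gene's mean over the 12 arrays, the members' median was 0.12 log2 units on Hdac2-null replicate 2 and -0.11 on Hopx-null replicate 3, while the median of all tested genes was -0.0057 and -0.019 on these arrays. Double-null medians were 0.038, 0.017 and 0.015. The other Hdac2-null arrays had medians of -0.095 and -0.042, the other Hopx-null arrays 0.064 and 0.080, and the wild-type arrays -0.072, 0.0087 and 0.050. Of the other mitotic genes, the median was 0.055 on Hdac2-null replicate 2 and -0.095 on Hopx-null replicate 3, and that of G1/S and replication genes was 0.020 and -0.20. The Gapdh 3′ to 5′ log2 ratio was 0.842 on Hdac2-null replicate 2 and 0.947 on Hopx-null replicate 3, the first being the lowest of the 12; its part in the result was not tested.

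**Figure D5:**
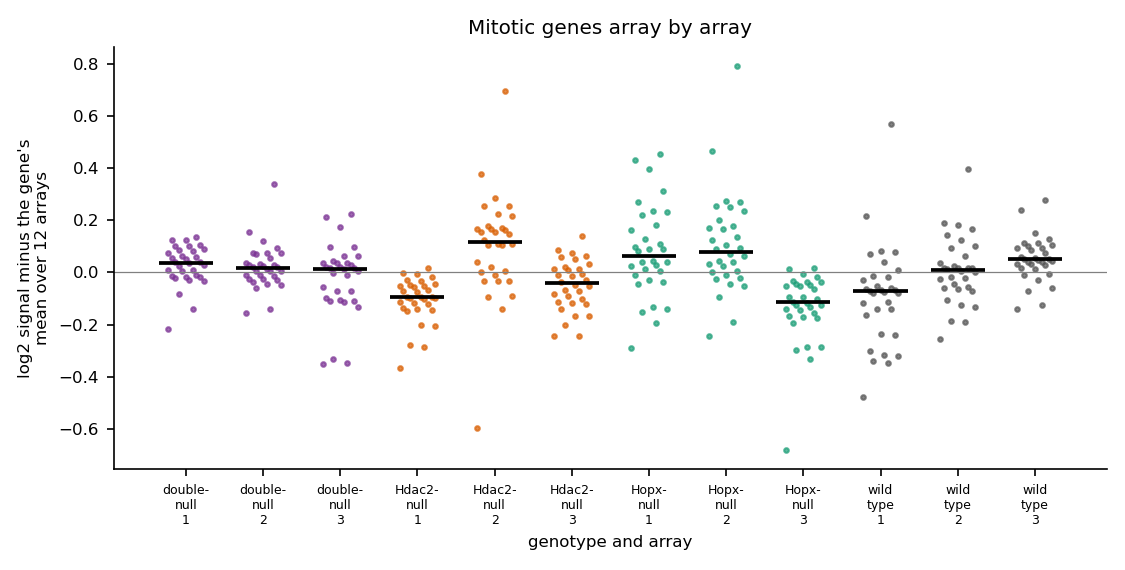
Log2 signal of the 32 members minus each gene's mean over the 12 arrays (points), by array, with the median of the members as a black bar. The medians run from -0.11 on Hopx-null replicate 3 to 0.12 on Hdac2-null replicate 2. The 3 double-null medians, 0.015 to 0.038, lie closest together.

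Other mitotic genes, 79 tested of a list of 87, gave 0 calls in each comparison. In double-null against Hdac2-null ventricles 55 of 79 were higher, 69.6%, against 47.6% of all genes, with a median log2 difference of 0.072. Against wild type, 55 of 79 were higher in double-null ventricles (median 0.034), 33 in Hdac2-null (median -0.032) and 50 in Hopx-null (median 0.040). Plk4, the kinase of centriole duplication, had the smallest p in double-null against wild type, at 4467, 4607 and 4268 units in double-null and 3122, 3568 and 4132 units in wild-type ventricles, a log2 difference of 0.31 (SE 0.10, adjusted p = 0.652). Aspm, a spindle pole protein, had it in Hdac2-null against wild type at log2 -0.18 (SE 0.081, adjusted p = 0.927). Haspin, the histone H3 kinase, had it in Hopx-null against wild type at 0.34 (SE 0.15, adjusted p = 1), with 138, 99.8 and 114 units in Hopx-null and 83.3, 75.9 and 113 units in wild-type ventricles. With 1 wild-type array below the floor of 82.9 units and another barely above it, the size of that difference depends on the floor.

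The genes of G1/S and DNA replication, which act just before the members in the cell cycle, gave 0 calls among 32 tested of a list of 38. 18 were higher in double-null (median log2 difference 0.050), 12 in Hdac2-null (median -0.025) and 19 in Hopx-null (median 0.032) than in wild-type ventricles. Cdc6, a replication licensing factor, measured 1222, 1097 and 1036 units in double-null and 918, 860.1 and 994 units in wild-type ventricles, at log2 0.27 (SE 0.13, adjusted p = 0.673). Ccne2, cyclin E2, was at -0.28 (SE 0.13, adjusted p = 0.927) in Hdac2-null and Gmnn, the licensing inhibitor geminin, at 0.19 (SE 0.11, adjusted p = 1) in Hopx-null ventricles. In double-null against Hdac2-null ventricles 24 of 32 were higher, 75%, against 47.6% of all genes, with a median of 0.090, and 4 had an unadjusted p under 0.05, where 11.3% of all genes did.

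22 members had further probe sets, of which 19 were above the floor on all arrays, 3 on some and 15 on none. None of the 19 was called in any comparison. For double-null against Hdac2-null, 15 of the 19 were higher, where 47.6% of all genes were, with a median log2 difference of 0.25, and 13 had the same sign as the probe set used. For Hdac2-null against wild type, 3 of the 19 were higher, with a median of -0.097, where 17 of 32 members were higher by the probe sets used. A second Cenpa probe set averaged 416 ± 60.0 units in double-null and 213 ± 96.4 units in Hdac2-null ventricles, log2 1.07 (adjusted p = 0.429), where the one used was at -0.021. The second Foxm1 probe set was at 0.060 (adjusted p = 0.891), where the one used was at 0.58.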

How the data were processed

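The deposited table holds linear intensity values of 45101 probe sets on 12 arrays; the submitters' processing notes name MAS5 without a version, and the file header states no further step. The values run from 3.60 to 57994 units, with 48.6% of them within 1 unit of 4.5, a shape that MAS5 alone does not usually give, so how the authors treated low signals is uncertain. Signals were floored at 82.9 units (0.1 of the average array level, after trimming 2% of values), log2 transformed and reduced to 1 probe set per gene. Genes under the 40th percentile of mean signal or at the floor on all arrays were left out, leaving 9662 genes. Names came from the platform annotation: 34958 probe sets had 1 gene, 932 several and 9211 none, and 34754 matched the GRCm38.p6 RefSeq gene table.

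limma 3.58.1 (R 4.3.3) was fitted to all 4 genotypes at once, with 1 coefficient each, an intensity trend and 8 residual degrees of freedom. Benjamini-Hochberg adjustment ran over all tested genes within each comparison, and genes under 0.05 were called. The fit was tested on simulated data. Promoter sequences are RefSeq's. Members and gene lists were chosen with earlier results of these data known. Genes were named by a rule: the 2 smallest p-values in each direction per comparison, anchor genes of each role, and in each further list the gene with the smallest p against wild type. Alternatives changed the floor, the normalisation, the filter, the probe set, the spread model, array weights, the samples, sex and the replicate block. The replicate number entered a fit only in that last alternative, as a block over all 4 genotypes, and the reported fit did not pair arrays. No label says what a number shares. Same-numbered Hopx-null and wild-type arrays deviated together (correlations of deviations 0.42, 0.42 and 0.15 for numbers 1, 2 and 3). Hopx-null and Hdac2-null arrays, not compared here, gave 0.21, 0.17 and 0.12, while in each of the other pairs of genotypes at least 1 number was under 0.1, down to -0.25. By Xist signal, number 1 was female and number 3 male in all 4 genotypes.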

Additional observations from a re-analysis of the deposited data

How the results depend on the processing

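The count of members called stayed at 0 in all 6 comparisons under every alternative but one: with array weights, 3 members were called in double-null against Hdac2-null (957 of all genes against 1). Leaving out wild-type replicate 1 and Hopx-null replicate 1 together, an alternative chosen after seeing the data, also called no member; a fit of only the compared groups was not run for the interaction, which uses all of them. Median member differences moved by less than the spread between replicates under every alternative. That spread, 0.083 log2 units, was larger than the medians themselves. The sign of the median changed among the alternatives in all 6 comparisons. It ran from -0.058 to 0.037 in Hdac2-null and from -0.0080 to 0.077 in double-null against wild type. The Hopx-null minus wild-type difference of Aurkb ranged from -0.35 to 0.033 when single arrays were left out, and it turned positive without wild-type replicate 1; the cause was not tested. Foxm1 in double-null against Hdac2-null ranged from 0.47 to 0.70 when single arrays were left out and was 0.16 with the mean of all its probe sets. That mean includes probe sets at or below the floor on all arrays. By the probe set used, every Hdac2-null array lay under the doubled floor for Foxm1, so the size of this difference depends on the floor. The Ube2c difference of Hdac2-null from wild type ranged from 0.062 to 0.26 when single arrays were left out, and the Aurkb interaction from 0.16 to 0.54. Over all alternatives the count of all genes called was 2 to 8 in double-null against wild type (3 as reported), 1 to 4 in Hdac2-null (2) and 1 to 2 in Hopx-null (1) against wild type, 1 to 4 in double-null against Hopx-null (2), and 0 to 1 in the interaction (0). The 8 and one count of 4 (Hdac2-null) came without wild-type replicate 3, and the 4 in double-null against Hopx-null came without wild-type replicate 1 and Hopx-null replicate 1 together. With the replicate block, 0 members were called in each comparison, and the block changed no call of a member; the count of all genes called in double-null against Hopx-null was then 1 in place of 2. Plk1 sat at the floor on most arrays, which bounds what can be said of it, and 3 arrays a group limit the rest.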

Other observations

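Regulators of the mitotic programme (MuvB, DREAM, MYB, YAP and related genes) gave 0 calls among 20 tested of a list of 24. 7 were higher in double-null, 4 in Hdac2-null and 4 in Hopx-null than in wild-type ventricles, with median log2 differences of -0.025, -0.082 and -0.037, where 45.5%, 44.9% and 48.9% of all genes were higher. Lin37, a MuvB subunit, measured 689.9, 680.1 and 675 units in double-null and 704, 1000.2 and 756 units in wild-type ventricles, at log2 -0.25 (SE 0.15, adjusted p = 0.711). Yap1, the Hippo pathway coactivator, was at 0.12 (SE 0.069, adjusted p = 0.927) in Hdac2-null ventricles. Rbbp4, a histone-binding MuvB subunit, was at -0.052 (SE 0.029, adjusted p = 1) in Hopx-null ventricles.

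Genes of p53 and cell cycle exit gave 0 calls among 15 tested of a list of 18. 5 were higher in double-null (median log2 difference -0.090), 5 in Hdac2-null (median -0.078) and 4 in Hopx-null (median -0.044) than in wild-type ventricles. Ccng1, the p53 target cyclin G1, measured 15081, 13502 and 15039 units in Hdac2-null and 16249.5, 15986 and 16008 units in wild-type ventricles, a log2 difference of -0.15 (SE 0.046, adjusted p = 0.898), and the groups did not overlap. Cdkn2c, the CDK4 and CDK6 inhibitor p18, was at -0.27 (SE 0.14, adjusted p = 0.677) in double-null ventricles, and Mdm2, the ligase that degrades p53, at -0.17 (SE 0.11, adjusted p = 1) in Hopx-null ventricles. The Mdm2 value included wild-type replicate 1 at 5201 units, against 3826 and 3604 units on the other wild-type arrays.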
